A study of Homo sapiens with 27 samples.

Results

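The transcripts of 41 genes that act in mitosis were followed across 27 HumanHT-12 v3 BeadChip arrays of HT1080 cells, a human fibrosarcoma line with fibroblast-like features. The genes were chosen by name, from a fixed list of cyclins, mitotic kinases, kinetochore, spindle and cytokinesis genes. No rule on their values was used, but earlier results of these data were known when the list was made. All 41 had a probe, out of 18665 genes on the array, and all 41 lay above the background level on every one of the 27 arrays. The study asked how nuclear envelope transmembrane proteins (NETs) of the fat (NET29/TMEM120A), muscle (NET39/PPAPDC3, now PLPP7) and liver (NET47/TM7SF2) nuclear envelope alter gene expression in fibroblast-like cells, away from their usual tissue. Cells stably expressing a full-length NET fused to GFP (NET29 n = 4, NET39 n = 4, NET47 n = 3) were compared with untreated, untransfected HT1080 cells (n = 4). Cells transiently transfected with the soluble nucleoplasmic fragment of a NET (n = 3 for each NET), which lacks the membrane anchor, were compared with cells transiently transfected with GFP carrying a nuclear localisation signal (NLS-GFP, n = 3). The labels' treatment protocol calls the fragment transfections transient and names NLS-GFP as their control, while a legend of the study calls the fragments stably expressed. The labels are followed here. The lines had also been through Geneticin selection and enrichment for GFP-expressing cells, which the untreated cells had not, and the number of clones in each line was not given. The methods describe separate passages of the lines but not which arrays these are, so the p-values measure only the spread between these samples, which may be technical.

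Genes of this kind form one of the most tightly co-regulated programmes of a dividing cell. They are held silent in resting cells and in G1 by the DREAM complex, and are switched on in G2 by B-MYB with the MuvB core and by FOXM1. MuvB contacts the cell cycle genes homology region (CHR) of their promoters, close to the start of transcription, while NF-Y binds CCAAT boxes a little further upstream. Their products are then used in a fixed order. Cyclin B with CDK1 drives entry into mitosis, kinetochore proteins and kinesins attach and align the chromosomes, the spindle checkpoint holds back CDC20 and the anaphase-promoting complex until all are attached, and securin (PTTG1) and the cyclins are then destroyed so that the chromosomes part and the cell divides. In RNA from a whole culture, fewer cells in G2 and mitosis cannot be told apart from less RNA per cell.

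The promoters show the sequence elements that these genes have in common. A promoter from 250 bases before to 50 bases after the start of transcription was matched by symbol for 35 of the 41 genes (RefSeq, build GRCh38.p14). The letters CCAAT, read on either strand, occurred in 27 of these 35 promoters (77.1%) against 34.6% of 35116 promoters of the same length. A CHR, searched as TTTGAA or TTCGAA on either strand, occurred in 25 (71.4%) against 16.4%, and both motifs together in 21 (60%) against 6.38%. More than 1 CCAAT was found in 18 of the 35 (51.4%) against 10.8% of all promoters, where a match on each strand of CCAATTGG was counted as 2. A match is a run of letters and was not tested as a binding site. The 150 bases before the start are shown for 6 of the genes on which the results below turn, with the motifs in capitals. CENPA (chr2:26785906-26786055, plus strand) and PTTG1 (chr5:160421705-160421854, plus strand) had the lowest adjusted p in the lines. AURKB (chr17:8210226-8210375, minus strand) and CDCA3 (chr12:6851287-6851436, minus strand) stood high with the NET29 and NET39 fragments without passing. TOP2A (chr17:40417897-40418046, minus strand) and HMMR (chr5:163460482-163460631, plus strand) varied widely between replicate arrays. No promoter was matched for FOXM1, which passed with the NET39 fragment.
CENPA: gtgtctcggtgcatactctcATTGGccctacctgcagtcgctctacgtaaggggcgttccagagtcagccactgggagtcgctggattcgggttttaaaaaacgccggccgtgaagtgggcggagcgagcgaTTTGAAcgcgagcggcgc
PTTG1: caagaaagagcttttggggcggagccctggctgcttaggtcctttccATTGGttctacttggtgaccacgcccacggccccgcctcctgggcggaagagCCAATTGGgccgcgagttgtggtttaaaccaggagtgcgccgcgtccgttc
AURKB: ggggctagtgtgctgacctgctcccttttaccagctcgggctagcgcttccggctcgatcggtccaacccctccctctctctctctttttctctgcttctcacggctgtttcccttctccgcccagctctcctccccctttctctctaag
CDCA3: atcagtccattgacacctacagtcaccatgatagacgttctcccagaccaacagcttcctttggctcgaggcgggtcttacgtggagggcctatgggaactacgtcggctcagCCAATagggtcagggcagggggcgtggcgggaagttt
TOP2A: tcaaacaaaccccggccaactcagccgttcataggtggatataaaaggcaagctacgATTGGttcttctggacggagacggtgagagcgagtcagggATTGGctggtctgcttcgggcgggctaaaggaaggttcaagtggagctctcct
HMMR: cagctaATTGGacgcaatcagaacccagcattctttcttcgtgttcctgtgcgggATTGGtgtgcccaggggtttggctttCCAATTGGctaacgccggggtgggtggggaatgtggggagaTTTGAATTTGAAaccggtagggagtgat
CENPA carries a CCAAT on the opposite strand (ATTGG) and a CHR 18 bases before the start, and HMMR carries 4 CCAAT matches followed by 2 adjoining copies of TTTGAA. CDCA3 carries a CCAAT and also a CHR that begins 3 bases before the start and runs past the end of the stretch shown, so it is not in capitals. Likewise, 1 CHR of TOP2A begins 151 bases before its start and is cut by the edge of the stretch. PTTG1 has 3 CCAAT matches and no CHR of these letters. AURKB has neither in the stretch shown, although 1 CCAAT lies 153 bases before its start.

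**Figure D1:**
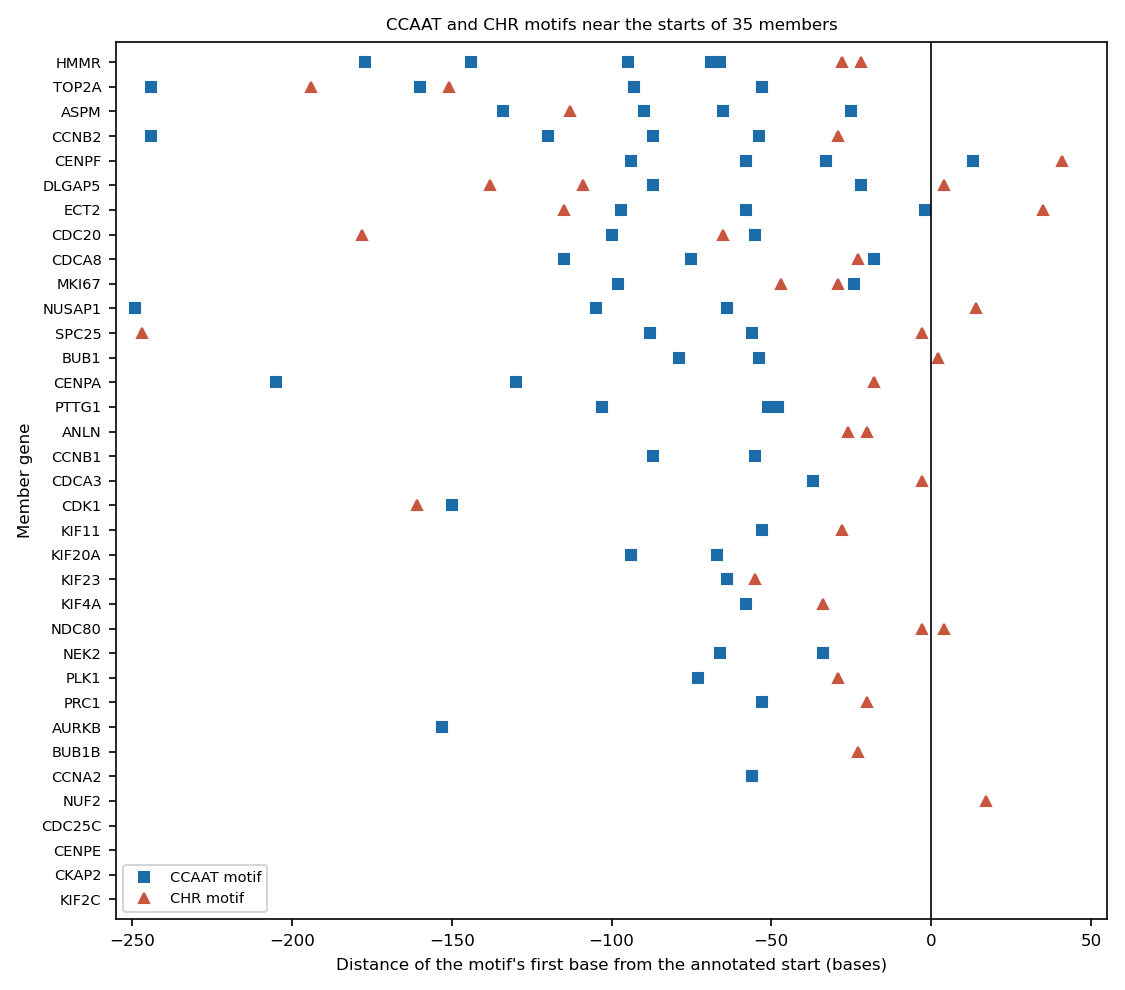
Positions of CCAAT and CHR matches in the promoters of the 35 matched mitosis genes, as distance in bases from the start of transcription on the x axis, with 1 gene per line on the y axis. CCAAT was found in 27 promoters and a CHR in 25, and 21 of the 35 carry both.

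The arrays differed among themselves in ways that the groups do not describe. The 2nd principal component over genes above background (17.8% of the variance) placed untreated replicate 2 at 42.5 and NET47 full-length replicate 3 at 38.5, with the other 25 arrays between -21.3 and 12.0. On the 1st component (36.3%) untreated replicate 4 lay at 22.0, among the transiently transfected arrays (9.56 to 30.9). TMEM120A reached 8.22 ± 0.262 on the log2 scale (SD, n = 4) in the NET29 line against 6.91 ± 0.265 (n = 4) in untreated cells, and TM7SF2 reached 12.5 in the NET47 line against 6.55. The target of NET39 did not follow its label, since the PLPP7 probe stood at 5.98 in the NET39 line, above background on 0 of 4 arrays, against 6.28 in untreated cells, above background on 3 of 4 (-0.30, adjusted p = 0.007). It was also lower in the NET29 line (-0.38). Whether this probe reads the part of the transcript that the plasmid carries was not tested. From these arrays, the groups labelled NET39 rest on their labels. The study itself reports each NET, NET39 included, above its endogenous level by semi-quantitative RT-PCR, and sorting of the lines for the GFP fusions. Of 10 mesenchymal markers, 5 (VIM, CD44, LGALS1, SPARC and CALD1) were above background on every array, while at most 1 of 6 epithelial markers was on any array.

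In the lines, the mitosis genes lay on the high side of untreated cells with NET29 and NET39 but differed little in size, and 1 of them passed the test. The height of that shift moved with single arrays, as given below. A gene passed where the adjusted p of limma (Benjamini-Hochberg over all 48803 probes) was below 0.05 and the log2 fold change exceeded 0.5. CENPA, the histone H3 variant that marks the centromere, rose in the NET39 line. None of the 41 passed in the NET29 line and none in the NET47 line. The share of all genes that passed was 3.29% (NET29), 3.72% (NET39) and 1.21% (NET47), so 0 of 41, 1 of 41 and 0 of 41 were not above the background. The 3 comparisons share the same 4 untreated arrays and are given side by side.

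CENPA stood at 9.42, 9.09, 9.36 and 8.77 on the log2 scale in the 4 untreated arrays. In the NET39 line it stood at 9.76, 9.56, 9.73 and 9.65, and in the NET29 line at 9.60, 9.56, 9.57 and 9.66. Every array of both lines lay above every untreated array, and the untreated arrays were the more widely spread. The log2 fold change was 0.52 ± 0.117 (SE, 95% interval 0.28 to 0.76, adjusted p = 0.0083) in the NET39 line, a 1.43-fold rise. In the NET29 line it was 0.44 ± 0.117 (adjusted p = 0.036), inside the fold limit. The NET47 line, at 9.39, 9.38 and 9.46, overlapped the highest untreated array (0.25, adjusted p = 0.741). A 2nd probe of CENPA gave 0.20 (adjusted p = 0.593) in the NET39 line and 0.16 in the NET29 line, so the call rests on the brighter probe. The call was lost when replicate 2 or 4 of untreated cells or replicate 1 of the NET39 line was left out (0.49, 0.39 and 0.49). With the 2 arrays that stood apart on the 2nd component left out together, the value was 0.49 (adjusted p = 0.0298), again inside the fold limit.

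PTTG1, which encodes securin, the inhibitor of separase, varied little between replicates and stood high in both lines. Its untreated values were 11.47, 11.51, 11.74 and 11.67. Those of the NET29 line were 12.04, 12.03, 11.92 and 11.83, and those of the NET39 line 12.00, 12.16, 12.02 and 12.00. Neither line overlapped untreated cells. The log2 fold changes of 0.36 ± 0.070 (adjusted p = 0.0024) and 0.45 ± 0.070 (adjusted p = 1.66e-04) were inside the fold limit of 0.5, so PTTG1 was not counted among the genes that passed. In the NET47 line PTTG1 stood at 11.94, 11.65 and 11.73, across the range of untreated cells (0.18, adjusted p = 0.583). The 2nd PTTG1 probe gave 0.32 in the NET29 line and 0.55 in the NET39 line (adjusted p = 0.161).

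Cyclin A2 (CCNA2), which carries cells through S phase and G2, also stood above untreated cells in both lines, with NET29 slightly the higher. It stood at 10.61, 10.12, 10.58 and 10.38 in untreated cells, at 10.88, 10.90, 10.91 and 10.72 in the NET29 line and at 10.85, 10.85, 10.79 and 10.81 in the NET39 line. Both lines lay above every untreated array, with log2 fold changes of 0.43 ± 0.119 (adjusted p = 0.0474) and 0.40 (adjusted p = 0.0646). In the NET47 line CCNA2 stood at 10.89, 10.62 and 10.42, which overlaps the untreated arrays.

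**Figure D2:**
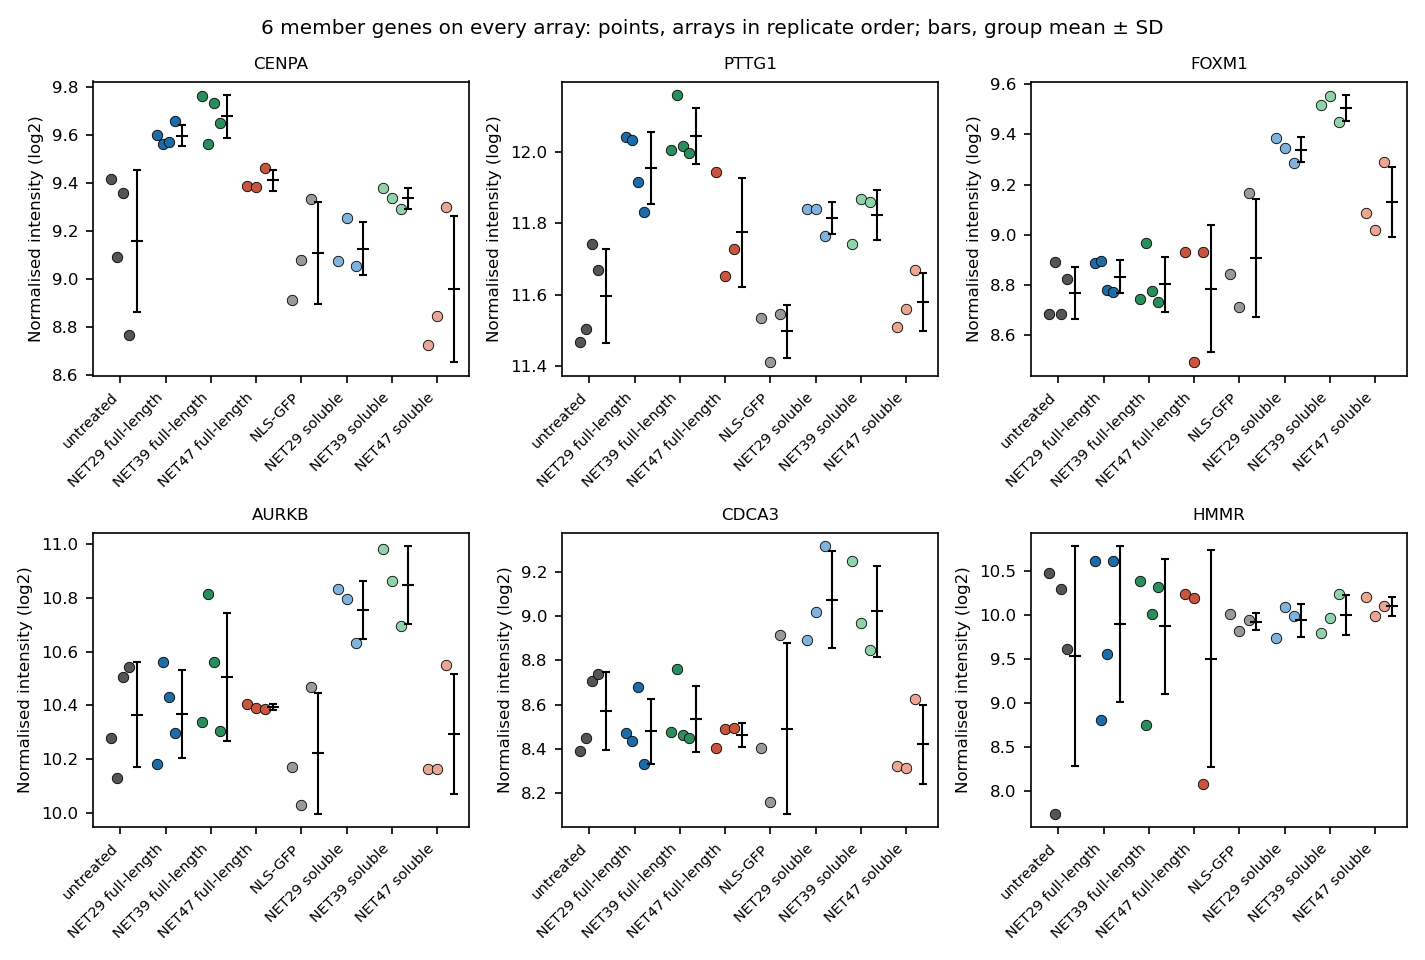
Log2 intensity (y axis) of CENPA, PTTG1, FOXM1, AURKB, CDCA3 and HMMR on each array, by group (x axis), with points for single arrays and bars for the mean ± SD of 3 or 4 arrays. CENPA and PTTG1 lie above every untreated array in the NET29 and NET39 lines, FOXM1 lies above every NLS-GFP array with the NET29 and NET39 fragments, and HMMR spreads widely within the untreated cells and the lines.

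Across the 41 genes the log2 fold changes in the lines had medians of 0.21 (NET29, 38 of 41 above 0), 0.16 (NET39, 38 of 41) and -0.01 (NET47, 20 of 41), where the median over all genes was 0.00 in each. Scaling each array to a common median gave 0.29, 0.24 and 0.04, so the direction for NET47 turned. Some of these genes moved together from array to array, as given below, so the numbers above 0 do not count independent genes. At an unadjusted p below 0.05 there were 9 higher and 0 lower genes in the NET29 line, 9 and 0 in the NET39 line, and 1 and 0 in the NET47 line. Here and below, counts at an unadjusted p have no share of all genes beside them, so they are not read as a result about the members. Genes whose arrays lay wholly above the untreated arrays were 4 with NET29 (CCNA2, BUB1, CENPA and PTTG1), where 3.59% of all genes did so, and 5 with NET39 (CCNA2, CENPA, KIF4A, CDCA8 and PTTG1), where 3.98% did. No member lay wholly below the untreated arrays in these lines (4.58% and 5.04% of all genes). In the NET47 line 0 members lay wholly above (3.76%) and 0 wholly below (3.15%).

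By role, with no test between roles, the medians in the NET29 line ran from 0.15 to 0.29 and in the NET39 line from 0.11 to 0.38. The 7 genes of cyclins, CDK1 and entry into mitosis had a median of 0.23 in the NET29 line and 0.14 in the NET39 line, the 6 mitotic kinases 0.16 and 0.19, and the 3 genes of the chromosomal passenger complex, which corrects attachments at the centromere, 0.15 and 0.17. The 5 genes grouped as kinesins (KIF11, KIF20A, KIF23, KIF2C and KIF4A) had medians of 0.20 and 0.19 and were above 0 in both lines, 5 of 5. CENPE, also a kinesin, was grouped with the centromere and kinetochore genes and gave -0.11 in the NET39 line. The 6 genes of the centromere and kinetochore had medians of 0.17 and 0.11 and the widest range, from -0.58 (CENPF) to 0.52 (CENPA) in the NET39 line. The 3 genes of exit from mitosis (CDC20, UBE2C and PTTG1) had medians of 0.28 and 0.38. In the NET47 line 20 of the 41 values were above 0 and the medians by role ran from -0.20 (cytokinesis) to 0.18 (exit from mitosis).

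Standard drivers and markers of mitosis differed little in size, whichever line was compared. CDK1, the mitotic cyclin-dependent kinase, gave 0.25, 0.15 and -0.19 in the NET29, NET39 and NET47 lines, and its partner cyclin B1 (CCNB1) 0.30, 0.14 and -0.01. Cyclin B1 stood at 8.28, 8.20, 8.48 and 8.29 in untreated cells, at 8.29, 8.85, 8.78 and 8.54 in the NET29 line, at 8.27, 8.57, 8.34 and 8.61 in the NET39 line and at 7.97, 8.50 and 8.42 in the NET47 line. All 3 lines overlapped the untreated arrays. PLK1, a kinase of spindle assembly and mitotic exit, gave 0.17, 0.25 and 0.14 on untreated values of 8.38, 9.02, 8.79 and 7.96. It stood at 8.63, 8.93, 8.77 and 8.51 in the NET29 line, at 8.83, 8.85, 8.78 and 8.71 in the NET39 line and at 8.71, 8.45 and 8.89 in the NET47 line, within the untreated range on every array. MKI67, the source of the Ki-67 proliferation antigen, gave -0.02, 0.05 and -0.08, and its 15 values in untreated cells and lines lay between 6.87 and 7.30. FOXM1 gave 0.06, 0.03 and 0.01, and none of these genes approached the threshold.

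The 3 largest values in the NET29 line, and the largest in the NET39 line, ahead of CENPA and PTTG1, belonged to genes with wide spread between replicates. ASPM, a spindle pole protein, stood at 10.01, 7.70, 9.83 and 8.96 in untreated cells. It stood at 10.72, 8.90, 9.31 and 10.88 in the NET29 line and at 10.20, 8.37, 9.76 and 10.26 in the NET39 line. All 3 groups overlapped, and the log2 fold changes of 0.83 ± 0.461 (adjusted p = 0.542) and 0.52 (adjusted p = 0.798) were not distinguishable from the spread. TTK, the checkpoint kinase MPS1, stood at 9.71, 7.42, 9.25 and 8.70 in untreated cells and at 9.84, 8.44, 9.18 and 9.65 in the NET29 line (0.51 ± 0.422, adjusted p = 0.756). ANLN, the cytokinesis scaffold anillin, stood at 9.27, 7.55, 9.01 and 8.89 against 9.16, 8.66, 9.41 and 9.41 (0.48 ± 0.270, adjusted p = 0.551). Both overlapped untreated cells in the same way, with untreated replicate 2 lowest.

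The lowest value in both lines was that of CENPF, a protein of the outer kinetochore. It stood at 9.69, 7.44, 9.31 and 9.05 in untreated cells, at 9.12, 7.78, 7.87 and 9.03 in the NET29 line and at 8.86, 7.32, 8.31 and 8.67 in the NET39 line. The differences of -0.42 ± 0.385 (adjusted p = 0.789) and -0.58 ± 0.385 (adjusted p = 0.661) did not pass. CDCA3, which promotes entry into mitosis, stood at 8.39, 8.45, 8.71 and 8.74 in untreated cells and at 8.47, 8.44, 8.68 and 8.33 in the NET29 line, with overlap. CENPE, the kinetochore kinesin, stood at 9.29, 7.22, 8.75 and 8.58 in untreated cells and at 9.00, 7.20, 8.38 and 8.83 in the NET39 line (-0.11, adjusted p = 0.975). CENPF and CENPE thus overlapped widely between groups, and each had its lowest value on replicate 2 of the untreated cells and of the NET39 line.

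In the NET47 line the highest values were those of CDC20, the activator of the anaphase-promoting complex, at 0.31 ± 0.164 (adjusted p = 0.784), and CKAP2, a spindle-associated protein, at 0.30 (adjusted p = 0.978). CDC20 stood at 12.96, 12.85 and 12.86 against 12.69, 12.60, 12.85 and 12.18 in untreated cells, and CKAP2 at 9.59, 9.75 and 8.46 against 9.49, 7.85, 9.54 and 9.02. CDC20 met the untreated range at its upper end and CKAP2 overlapped it. The lowest were CENPE at -0.41 ± 0.455 (adjusted p = 0.979), with 8.50, 8.51 and 7.13, and ECT2, the exchange factor that starts the cleavage furrow, at -0.39 ± 0.388 (adjusted p = 0.972), with 9.29, 9.31 and 7.91 against 9.91, 7.96, 9.66 and 9.37. NDC80, a microtubule-binding subunit of the kinetochore, stood at 7.76, 7.60 and 6.73 against 8.03, 6.67, 7.74 and 7.80 (-0.20, adjusted p = 0.983). In each of these 3 genes replicate 3 of the NET47 line was well below the other 2.

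**Figure D3:**
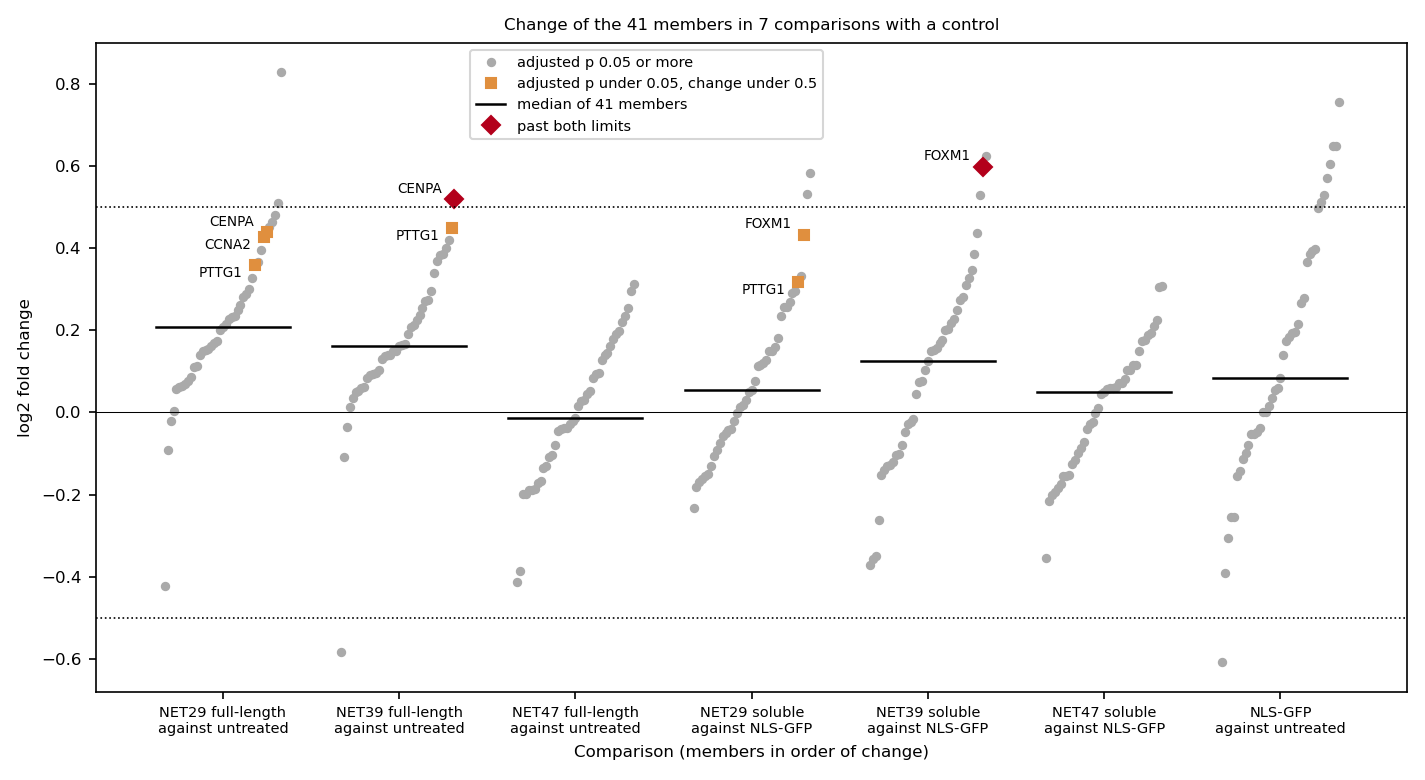
Log2 fold changes (y axis) of the 41 mitosis genes in 7 comparisons with a control (x axis), with black lines for medians and dotted lines at ±0.5. The 2 red diamonds are CENPA in the NET39 line and FOXM1 with the NET39 fragment, which passed both limits, and orange squares mark an adjusted p below 0.05 inside the fold limit. The medians of NET47 full-length, NET29 soluble and NLS-GFP change sign when arrays are scaled to a common median.

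A subset of the genes varied between replicate arrays far more than most transcripts did. The SD of the residuals from the group means exceeded 0.323, the 95th percentile over 11908 genes above background, in 14 of 41 mitosis genes (34.1%), against 5.01% of those genes. The 14 were CDK1, CENPE, CENPF, KIF11, TOP2A, TTK, HMMR, DLGAP5, ASPM, ANLN, ECT2, NDC80, NUF2 and CKAP2, with SDs of 0.338 to 0.794. The other 27 lay between 0.0965 and 0.288. This split was made from the values themselves and is a description without a test.

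The spread came from a few arrays, on which the 14 genes moved together. TOP2A, the topoisomerase that untangles sister chromatids, stood at 11.92, 9.12, 11.43 and 10.97 in untreated cells, at 11.58, 10.26, 10.83 and 11.42 in the NET29 line, at 11.25, 10.46, 10.86 and 11.29 in the NET39 line and at 11.15, 11.47 and 9.85 in the NET47 line. HMMR, a hyaluronan receptor that also binds spindle microtubules, stood at 10.47, 7.74, 10.29 and 9.61, at 10.61, 8.80, 9.56 and 10.61, at 10.39, 8.75, 10.01 and 10.32, and at 10.24, 10.19 and 8.08 in the same groups. CDK1 stood at 9.91, 8.12, 9.36 and 9.33, at 9.67, 8.83, 9.51 and 9.70, at 9.41, 8.92, 9.46 and 9.51, and at 9.47, 9.32 and 8.18. In all 3 genes the lowest array of each group was, in turn, untreated replicate 2, NET29 full-length replicate 2, NET39 full-length replicate 2 and NET47 full-length replicate 3. Averaged over the 14 genes, these arrays deviated from their group means by -1.27, -0.73, -0.74 and -0.85 on the log2 scale, and all 14 genes were below the group mean on untreated replicate 2. Over the other 27 genes the mean deviations on the same arrays were -0.11, 0.01, -0.02 and -0.02. The transiently transfected arrays showed no such spread, with mean deviations of the 14 genes between -0.12 and 0.10. NET29 full-length replicate 3 was mixed for the 14 genes, with 9 below the group mean. Their deviations on that array ran from -0.64 to 0.25 (mean -0.14).

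The 14 genes followed each other closely from array to array. Over the 27 arrays, the deviations from group means correlated with a median Pearson coefficient of 0.92 (0.79 to 0.98) among the 91 pairs of the 14 genes. It was 0.21 (-0.55 to 0.84) among the 351 pairs of the other 27 genes and 0.02 (-0.71 to 0.90) among the 378 mixed pairs. This is a description over arrays that share preparation and normalization, and the 14 were picked by the spread of these same deviations. The sets are not sharply apart, since 21 of the other 27 genes were also below the group mean on untreated replicate 2 (range -0.56, NEK2, to 0.48). Further probes moved with the first on untreated replicate 2, where those of HMMR, CDK1, KIF11, CKAP2 and CENPE deviated by -1.78, -0.72, -0.94, -0.95 and -0.93. Of 44 other mitotic genes, 11 (25%) had a residual SD above the same limit. Their mean deviation was -0.39 on untreated replicate 2, where that of 27 DNA replication genes was 0.00. A CHR was found in 11 of the 13 promoters matched among the 14 genes and in 14 of the 22 matched among the other 27, and CCAAT in 8 and 19. The 14 genes spanned a median of 44.3 kb of genome (16.5 to 92.5) and the other 27 a median of 19.5 kb (4.22 to 131).

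**Figure D4:**
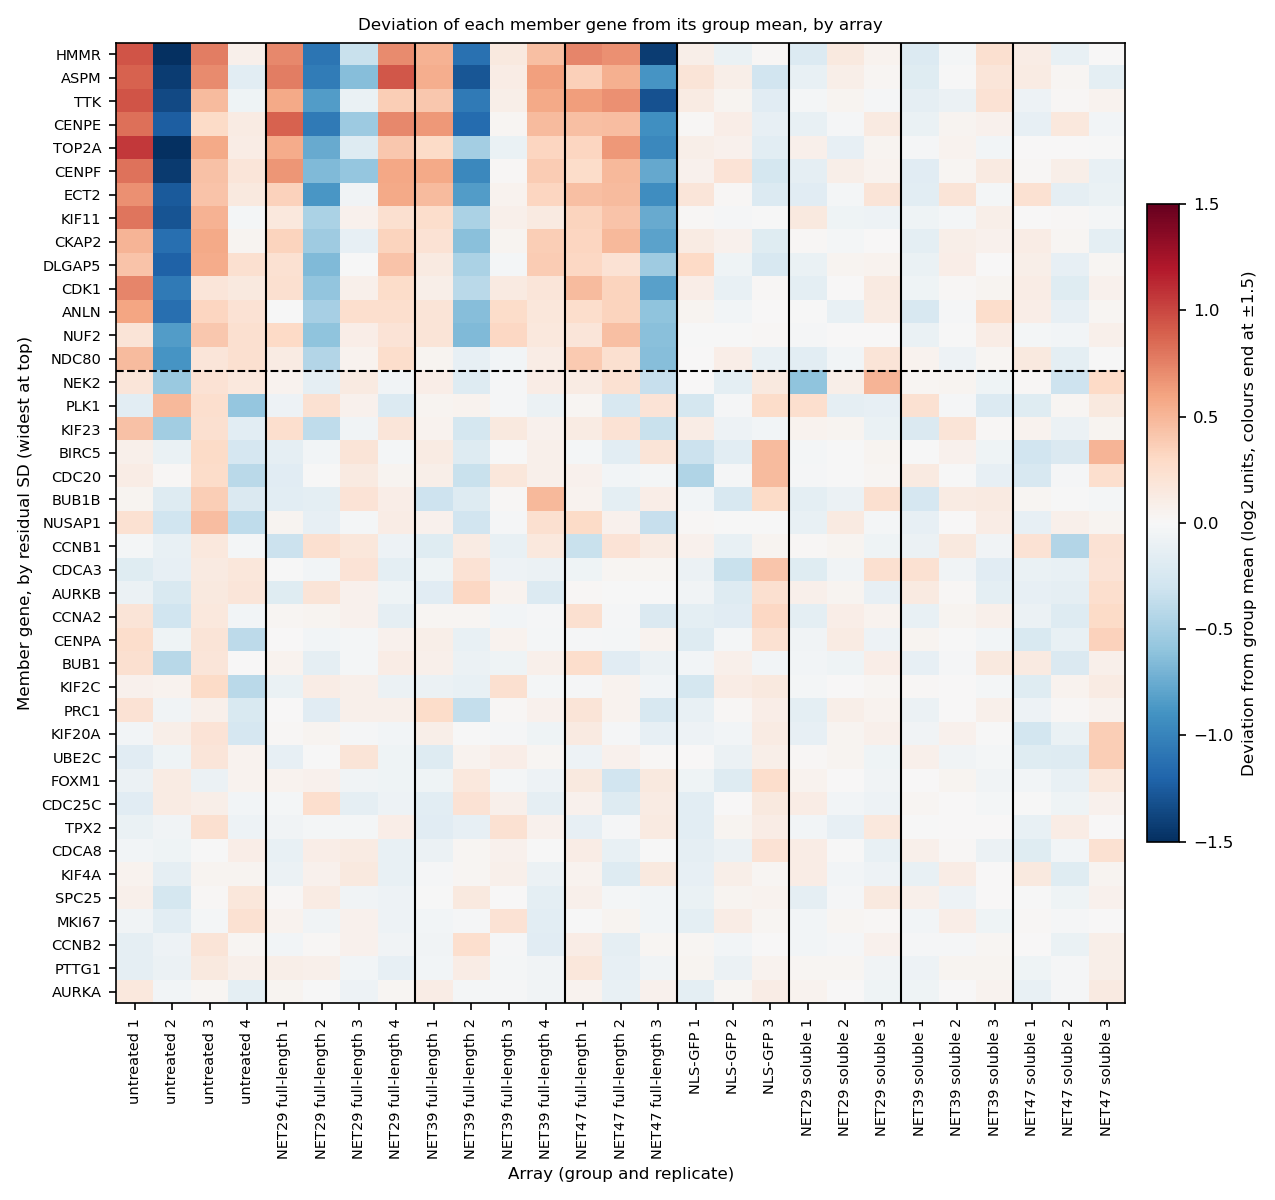
Deviation of each mitosis gene from its group mean (colour, log2 scale) on each of 27 arrays (x axis), with the 41 genes (y axis) ordered by residual SD and a dashed line below the 14 widest. Those 14 are low together on untreated replicate 2, replicate 2 of the NET29 and NET39 lines and replicate 3 of the NET47 line, while the transiently transfected arrays are even for these genes. Replicate 3 of the NET29 line is mixed for them.

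The height of the medians in the NET29 and NET39 lines moved with these arrays. With the 2 arrays that stood apart left out (replicate 2 of untreated cells, replicate 3 of the NET47 line), the medians over the 41 genes were 0.06 (NET29, 27 of 41 above 0) and 0.06 (NET39, 23 of 41). Among the 14 genes the median went from 0.26 to -0.13 in the NET29 line (from 13 to 4 genes above 0) and from 0.14 to -0.23 in the NET39 line (from 12 to 1). Among the other 27 it went from 0.17 to 0.13 in both. CENPF then stood lowest, at -0.89 (NET29) and -1.05 (NET39), and 0 of 41 genes passed in any line. This leaves the control without its low array while the NET29 and NET39 lines keep theirs, which by itself lowers the 14 genes. With the low array of each of the 4 groups left out, an alternative added after seeing the data, the medians over the 41 genes were 0.13 (NET29, 34 above 0) and 0.10 (NET39, 28 above 0). Those of the 14 genes were 0.13 (10 above 0) and -0.03 (6 above 0), and those of the other 27 were 0.15 and 0.13. The NET29 line kept its replicate 3, on which 9 of the 14 genes were below the group mean. CENPA then passed in the NET39 line (0.53, adjusted p = 0.0338), alone among the 41 genes in the 3 lines against untreated cells.

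**Figure D5:**
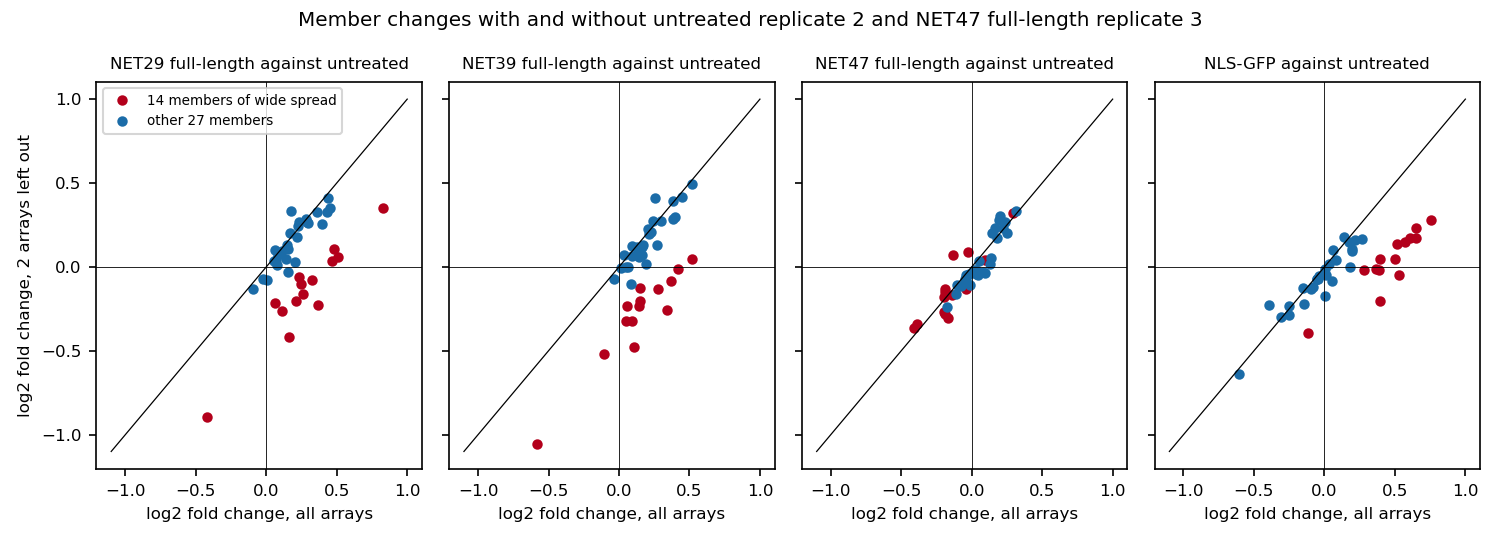
Log2 fold change of each of the 41 mitosis genes with all arrays (x axis) and with replicate 2 of untreated cells and replicate 3 of the NET47 line left out (y axis), in 4 comparisons with untreated cells, with the 14 genes of wide spread marked apart. In the NET29 and NET39 lines, which keep their own low arrays here, the 14 genes lie below the diagonal, while the other 27 stay near it.

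With the soluble fragments, FOXM1 rose with the NET39 fragment, and AURKB, CDCA3 and PTTG1 gave values of 0.32 to 0.62 with the NET29 and NET39 fragments without passing. No member passed with the NET29 fragment (1.3% of all genes did) and none with the NET47 fragment (1.17%). With the NET39 fragment 1 of 41 passed, where 0.145% of all genes did, that is 27 genes in all. The 3 comparisons share the 3 NLS-GFP arrays. FOXM1, the transcription factor that activates the G2 and mitosis genes, stood at 8.84, 8.71 and 9.17 with NLS-GFP. It stood at 9.52, 9.55 and 9.45 with the NET39 fragment, at 9.39, 9.35 and 9.29 with the NET29 fragment and at 9.09, 9.02 and 9.29 with the NET47 fragment. The arrays of the NET39 and NET29 fragments lay above every NLS-GFP array, whose 3rd replicate was the highest, and those of the NET47 fragment overlapped them. The log2 fold changes were 0.60 ± 0.109 (SE, 95% interval 0.37 to 0.82, adjusted p = 0.0223, a 1.51-fold rise) with the NET39 fragment, 0.43 ± 0.109 (adjusted p = 0.0445, inside the fold limit) with the NET29 fragment and 0.23 ± 0.109 (adjusted p = 0.665) with the NET47 fragment. The 2nd FOXM1 probe gave 0.50 (adjusted p = 0.179) with the NET39 fragment and 0.29 with the NET29 fragment. The FOXM1 call was lost when any 1 of NLS-GFP replicates 1 and 2 or of the 3 arrays of the NET39 fragment was left out, and in untreated cells and the lines FOXM1 ranged from 8.49 to 8.96.

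AURKB, the kinase of the chromosomal passenger complex, stood at 10.17, 10.03 and 10.47 with NLS-GFP. It stood at 10.83, 10.80 and 10.63 with the NET29 fragment and at 10.98, 10.86 and 10.69 with the NET39 fragment, all above the control arrays. The values of 0.53 ± 0.138 (adjusted p = 0.0528) and 0.62 ± 0.138 (adjusted p = 0.0723) exceeded the fold limit but not the p limit. With the NET47 fragment AURKB stood at 10.16, 10.16 and 10.55, over the range of the control (0.07, adjusted p = 0.965). CDCA8, which encodes borealin of the same complex, gave 0.44 ± 0.099 (adjusted p = 0.0852) with the NET39 fragment. The 3 genes of the complex ran from 0.31 to 0.62 with that fragment, and none passed.

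CDCA3 stood at 8.41, 8.16 and 8.91 with NLS-GFP, at 8.89, 9.02 and 9.31 with the NET29 fragment and at 9.25, 8.97 and 8.85 with the NET39 fragment. The 3rd NLS-GFP array overlapped both. The values were 0.58 ± 0.151 (adjusted p = 0.0533) with the NET29 fragment, the highest of the 41 there, and 0.53 ± 0.151 (adjusted p = 0.208) with the NET39 fragment. With the NET47 fragment CDCA3 stood at 8.32, 8.31 and 8.63 (-0.07, adjusted p = 0.97). PTTG1 stood at 11.53, 11.41 and 11.55 with NLS-GFP, at 11.84, 11.84 and 11.76 with the NET29 fragment, at 11.74, 11.87 and 11.86 with the NET39 fragment and at 11.51, 11.56 and 11.67 with the NET47 fragment. The NET29 and NET39 fragments lay above the control on all arrays, at 0.32 ± 0.081 (adjusted p = 0.0481, inside the fold limit) and 0.33 (adjusted p = 0.128), and the NET47 fragment overlapped it at 0.08. With arrays scaled to a common median the NET29 fragment values were -0.06 for PTTG1, -0.08 for FOXM1, 0.02 for AURKB and 0.08 for CDCA3, so the direction turned for PTTG1 and FOXM1.

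The 3rd NLS-GFP replicate was the highest of the control arrays for FOXM1, AURKB, CDCA3 and PTTG1, and calls turned on it. With this array left out, FOXM1 (0.56, adjusted p = 0.00752), CDCA3 (0.79, adjusted p = 0.00426) and AURKB (0.65, adjusted p = 0.0227) passed with the NET29 fragment. AURKB (0.75, adjusted p = 0.0118) and CDCA3 (0.74, adjusted p = 0.0101) then passed with the NET39 fragment beside FOXM1 and CDCA8, 4 members in all. The share of all genes that passed without this array is not given. These counts therefore have no background beside them and are not read as a result about the members. The part of that array in the result was not tested further.

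The medians over the 41 genes were 0.05 with the NET29 fragment (25 of 41 above 0), 0.13 with the NET39 fragment (25 of 41) and 0.05 with the NET47 fragment (23 of 41), but with arrays scaled to a common median they were -0.41, 0.07 and 0.43, so the direction for NET29 turned. That scaling moved the median of all genes by -0.10 and 0.11 with the NET29 and NET47 fragments, and relative to it the members stood at -0.31 and 0.32. FOXM1 with the NET29 fragment then stood at 0.02 above the median of all genes and with the NET39 fragment at 0.55. With the NET29 fragment, 7 genes were higher and 1 lower at an unadjusted p below 0.05, with the NET39 fragment 8 and 0, and with the NET47 fragment 1 and 1.

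Genes whose 3 arrays lay wholly above NLS-GFP were 10 of 41 with the NET29 fragment, where 9.77% of all genes did so, and 13 of 41 with the NET39 fragment, where 8.43% did. Shared by both counts were CCNB1, CCNB2, AURKB, UBE2C, NUF2, SPC25, PTTG1 and FOXM1, in comparisons that share their control arrays. Wholly below were 0 of 41 with the NET29 fragment (13.1% of all genes) and 4 with the NET39 fragment (9.71%), namely CENPE, KIF11, TOP2A and NUSAP1. With the NET47 fragment 0 lay wholly above (7.6%) and 5 wholly below (7.39%), namely KIF11, TOP2A, NUSAP1, PRC1 and NUF2. By role, all 7 genes of cyclins, CDK1 and entry into mitosis were above 0 with both the NET29 and the NET39 fragment (medians 0.26 and 0.20), and all 3 genes of cytokinesis were below 0 (medians -0.05 and -0.13).

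Among the lowest values with the fragments, none passed. AURKA, the centrosomal Aurora kinase, stood at 10.90, 10.86 and 10.78 with the NET29 fragment against 10.87, 11.05 and 11.13 with NLS-GFP (-0.17 ± 0.080, adjusted p = 0.338). CENPF stood at 9.26, 9.48 and 9.45 against 9.69, 9.84 and 9.36 (-0.23, adjusted p = 0.873), and CKAP2 at 9.33, 9.27 and 9.31 against 9.60, 9.56 and 9.30 (-0.18, adjusted p = 0.87). AURKA, CENPF and CKAP2 each overlapped the control. With the NET39 fragment the lowest were ASPM, at 9.23, 9.40 and 9.58 against 9.97, 9.86 and 9.49 (-0.37 ± 0.532, adjusted p = 0.902), and TOP2A, at 11.02, 11.08 and 11.00 against 11.48, 11.46 and 11.23 (-0.36 ± 0.461, adjusted p = 0.886). CENPF stood at 9.11, 9.31 and 9.42 (-0.35, adjusted p = 0.883). TOP2A did not overlap NLS-GFP, and its SE of 0.461 comes from the spread of the stable lines and untreated cells, which the model shares among all groups.

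With the NET47 fragment the highest were CCNB1, at 8.58, 7.93 and 8.59 against 8.13, 7.94 and 8.10 with NLS-GFP (0.31 ± 0.157, adjusted p = 0.704), and BUB1B, the checkpoint protein BUBR1, at 7.10, 7.06 and 7.03 against 6.71, 6.52 and 7.04 (0.31 ± 0.175, adjusted p = 0.762). The lowest were PLK1, at 7.61, 7.83 and 7.94 against 7.88, 8.14 and 8.42 (-0.35 ± 0.191, adjusted p = 0.733), CDC20, at 11.82, 12.04 and 12.31 against 11.82, 12.26 and 12.74 (-0.22, adjusted p = 0.874), and TOP2A, at 11.19, 11.19 and 11.18 (-0.20, adjusted p = 0.973). Except for TOP2A, these groups overlapped. Taken as pairs by replicate number, PLK1 and TOP2A were lower with the fragment in every pair, while CCNB1, BUB1B and CDC20 went both ways. No member passed with the pairs in the model.

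The comparison of NLS-GFP with untreated cells sets transient transfection with a control protein against no transfection. None of the 41 passed, where 1.11% of all genes did, and the median was 0.08 (27 of 41 above 0), or -0.06 with arrays scaled to a common median. At an unadjusted p below 0.05, 3 genes were higher and 3 lower. BIRC5, which encodes survivin of the chromosomal passenger complex, stood at 9.96, 10.13 and 10.75 with NLS-GFP against 10.96, 10.79, 11.17 and 10.64 in untreated cells (-0.61 ± 0.166, adjusted p = 0.0628). Its 3rd NLS-GFP array lay within the untreated range, and a 2nd probe gave -0.49 (adjusted p = 0.0883). BIRC5 passed when that array (-0.84, adjusted p = 0.00507) or replicate 4 of untreated cells (-0.69, adjusted p = 0.0179) was left out. PLK1 (-0.39 ± 0.179, adjusted p = 0.296) and CDC20 (-0.31, adjusted p = 0.383) were next, the latter at 11.82, 12.26 and 12.74, so that the 3rd NLS-GFP array was again the highest. The highest were CENPF (0.76 ± 0.416, adjusted p = 0.4), CENPE (0.65, adjusted p = 0.522, at 9.13, 9.21 and 8.99) and ASPM (0.65, adjusted p = 0.568, at 9.97, 9.86 and 9.49), all among the 14 genes that were low on untreated replicate 2. With that array and replicate 3 of the NET47 line left out the median of the 14 went from 0.51 to 0.05. No member lay wholly above untreated cells (4.61% of all genes) and 1, CCNB1, lay wholly below (4.73%).

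Whether a full-length NET and its fragment differed in effect was tested as the difference of their fold changes, each against its own control. None of the 41 passed for NET29, NET39 or NET47, where 5.34%, 2.29% and 0.723% of all genes did. The nearest were FOXM1 for NET39, at -0.56 ± 0.144 (adjusted p = 0.0502), and CDCA3 for NET29, at -0.67 ± 0.200 (adjusted p = 0.0643), both lower in the full-length effect than in that of the fragment. AURKB gave -0.53 (adjusted p = 0.126) for NET29. With the low array of each of the 4 groups left out, AURKB passed for NET29 and AURKB and FOXM1 for NET39. So the rise of FOXM1 with the NET39 fragment, beside 0.03 in the NET39 line, was not shown to differ between the 2 forms at the threshold. FOXM1 passed in this test when replicate 1 or 3 of untreated cells, replicate 2 of the NET39 line or replicate 3 of NLS-GFP was left out, and CDCA3 passed for NET29 when replicate 1 of untreated cells, replicate 3 of the NET29 line or replicate 3 of NLS-GFP was left out. At an unadjusted p below 0.05 the counts of higher and lower members were 5 and 4 for NET29, 1 and 3 for NET39, and 3 and 0 for NET47.

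Direct comparison of the lines gave no member past the threshold for NET39 against NET29 (0.171% of all genes), NET47 against NET29 (2.28%) or NET47 against NET39 (2.37%). The fold changes here do not use the untreated arrays, but the SE and p-values do, since the model shares the spread of all groups. The medians were -0.03, -0.19 and -0.15, with 15, 8 and 5 of 41 genes above 0. With replicate 3 of the NET47 line and replicate 2 of untreated cells left out, the medians for NET47 against NET29 and against NET39 were -0.10 and -0.07 (13 and 14 above 0), and those of the 14 genes of wide spread went from -0.43 to -0.01 (NET47 against NET29) and from -0.34 to 0.06 (NET47 against NET39). With the low array of each of the 4 groups left out, the medians of the 41 were -0.11 and -0.14 and those of the 14 were -0.24 and -0.15, and ANLN passed as lower in NET47 than in NET29. SPC25, a subunit of the NDC80 kinetochore complex, stood at 7.71, 7.62 and 7.60 in the NET47 line, against 7.97, 8.12, 7.99 and 7.83 in the NET39 line and 7.97, 8.07, 7.90 and 7.87 in the NET29 line. The NET47 line lay below every array of both other lines, at -0.33 ± 0.086 (adjusted p = 0.0414, inside the fold limit) and -0.31 (adjusted p = 0.0672). PTTG1 gave -0.27 (adjusted p = 0.0753) for NET47 against NET39. At an unadjusted p below 0.05 the counts of lower members were 0, 6 and 5, with 0 higher in each, and NET47 full-length replicate 3, low for the 14 genes of wide spread, was 1 of the 3 arrays of that line.

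Other genes of the cell cycle passed against the controls in a few cases. Of 44 other mitotic genes, CKS1B, a small CDK-binding protein, fell by 0.81 ± 0.146 on the log2 scale in the NET29 line (adjusted p = 0.00103) and MASTL, the Greatwall kinase that restrains phosphatase PP2A in mitosis, rose by 0.55 ± 0.119 in the NET39 line (adjusted p = 0.00613). No other gene of that list passed, and its medians in the NET29, NET39 and NET47 lines were 0.24, 0.22 and 0.00. None of 14 anaphase-promoting complex genes passed in any of the 7 comparisons with a control, and none of 21 genes of the DREAM and MuvB complexes and their E2F, MYBL2 and NF-Y partners. Of 27 DNA replication and G1/S genes, RRM1, a subunit of ribonucleotide reductase, rose in the NET29 line (0.52, adjusted p = 0.00493) and in the NET39 line (0.57, adjusted p = 0.00148), and UNG, the uracil glycosylase, was lower with NLS-GFP than in untreated cells (-1.08, adjusted p = 0.0448). UNG stood at 8.53, 8.74 and 10.12 with NLS-GFP against 10.52, 10.44, 10.47 and 9.44, so the 3rd NLS-GFP array lay within the untreated range. Of 16 cyclin D and CDK inhibitor genes, CDKN1B (p27) and CDKN3, which dephosphorylates CDKs, rose with the NET29 fragment (0.68, adjusted p = 0.0233, and 0.77, adjusted p = 0.0393), and CDKN2D was lower with NLS-GFP than in untreated cells (-0.59, adjusted p = 0.0488). CDKN2D also overlapped untreated cells, with the 3rd NLS-GFP array at 7.80 and untreated replicate 4 at 7.72. CCND2, which encodes cyclin D2, fell in the NET29 and NET39 lines (adjusted p = 0.00375 and 1.47e-04), with a probe above background on 14 of 27 arrays, so no fold is given.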

How the data were processed

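RNA of 27 HT1080 samples was measured on HumanHT-12 v3 BeadChips. The authors deposited a table of probe intensity values that were not normalised, for 48803 probes, and a table of log2 values quantile normalised with limma in R, with no version stated. Starting from the intensities, background was corrected by normexp (offset 50), which fits on all probes, values were taken to log2 and arrays were quantile normalised, with limma 3.58.1 in R 4.3.3. The deposited log2 table ranked probes in the same order (rank correlation 1) and served as an alternative. Every per-sample column was used. Of the probes, 27577 carried 1 gene symbol, 13 several and 21213 none. A gene was represented by its probe with the highest mean. A probe counted as above background on an array where it exceeded the 95th percentile of 620 probes to gene families that are silent in these cells. The number of arrays limits the precision.

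Group means of all 27 arrays were fitted in 1 limma model (19 residual degrees of freedom), moderated with eBayes, for 13 comparisons. A gene passed with an adjusted p below 0.05 (Benjamini-Hochberg over all probes) and a log2 fold change beyond 0.5, the limits of the study's methods. The study applied them to moderated F-statistics, with both NLS-GFP and untransfected cells as reference. Here the lines were set against untreated cells, and NLS-GFP as their reference was an alternative. The steps were tested on simulated data. Values per array are given for members that passed, for the 3 highest and 3 lowest members of each comparison with a control and for CCNB1, CDK1, PLK1, TOP2A, MKI67 and FOXM1. Genes of other lists are named where they passed against a control, CCND2 included. HMMR, PTTG1, CCNA2, AURKB, CDCA8 and SPC25 were described further where their values stood out, after these were seen. The members and lists were chosen with earlier results of these data known. Motifs were searched with RefSeq promoters of GRCh38.p14. Replicate numbers were taken to pair samples where all same-numbered deviations correlated above 0.1. This held only for the NET47 fragment against NLS-GFP (0.42 to 0.66), where the count of members that passed was 0 with and without the block. No 2 arrays were duplicates (highest correlation 0.997). Alternatives covered background correction, scaling, filter, probe choice, source table, samples in the fit, reference and single arrays.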

Additional observations from a re-analysis of the deposited data

Results flagged for a closer look

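Single arrays stood far from the others of their group (Dixon's criterion, groups of 4) in 10 of 126 groups of values tested, where chance marks about 1 in 20. Untreated replicate 2 was low for KIF4A (7.914, others 8.082 to 8.099), NEK2 (6.963, others 7.68 to 7.735) and NUF2 (6.266, others 7.295 to 7.501). NET39 full-length replicate 2 was low for CDK1 (8.921, others 9.413 to 9.515), ANLN (8.177, others 8.992 to 9.1), NUF2 (6.589, others 7.405 to 7.568) and the mean over the 41 members (9.167, others 9.486 to 9.548), and it was high for CDCA3 (8.759, others 8.45 to 8.475) and PTTG1 (12.16, others 12 to 12.02). Untreated replicate 3 was high for TPX2 (10.13, others 9.796 to 9.844). CDK1, ANLN and NUF2 belong to the 14 genes of wide spread.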

How the results depend on the processing

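Over all alternatives, 223 counts of members that passed stayed within 1.5 times the reported count and 63 did not. Of the medians, 281 moved by less than the largest SD of array medians among the compared groups and 2 by more. Those 2 were with arrays scaled to a common median (-0.41 with the NET29 fragment and 0.43 with the NET47 fragment). In untreated cells the array medians were 9.49, 8.20, 9.36 and 8.98, so their SD exceeded the medians of the line comparisons. A move could hardly pass that limit in comparisons with untreated cells, so staying within it does not show that those medians were stable. No member that passed changed sign. For the NET29 line (0 passed), 3 passed with NLS-GFP as the reference (CCNB1, CDC20 and BIRC5) and 3 with no minimum fold, and 0 to 2 with single arrays left out (1 without untreated replicate 1, 2 without untreated replicate 3). For the NET39 line (1 passed), 0 passed with median scaling, with only the compared arrays, with the mean of a gene's probes, without both arrays that stood apart and with array weights, 6 with NLS-GFP as the reference, 2 with no minimum fold, and 0 to 2 with single arrays left out (2 without untreated replicate 3, with NUSAP1 the second). For the NET47 line (0), 2 passed with NLS-GFP as the reference. The share of all genes that passed is given neither for that reference nor for the other alternatives. The counts of members under them therefore have no background beside them. For the NET29 fragment (0), 1 passed without background correction (CDCA3) and 1 with only the compared arrays (AURKB), 2 with the authors' table, a filter on dim probes, the mean of probes, both apart arrays out, array weights or no minimum fold, and 0 to 3 with single arrays left out (3 without NLS-GFP replicate 3). For the NET39 fragment (1), 0 passed with a normexp offset of 16 or median scaling, 2 with only the compared arrays or array weights, and 0 to 4 with single arrays left out (4 without NLS-GFP replicate 3). For NLS-GFP against untreated (0), 1 passed with the filter, the mean of probes or array weights, and 0 to 2 with single arrays left out (2 without untreated replicate 4, 1 without NLS-GFP replicate 3). For the full-length effect minus the soluble effect, 1 member passed for NET29 (CDCA3) with the filter, the mean of probes or array weights and for NET39 (FOXM1) with cyclic loess, the filter or array weights, and 0 to 1 and 0 to 2 with single arrays left out. With no minimum fold 1 passed for NET47 against NET39 (SPC25). With the low array of each of 4 groups left out, 2 passed with the NET29 fragment, 2 with the NET39 fragment, 1 and 2 in the full-length minus soluble difference for NET29 and NET39, and 1 for NET47 against NET29 (ANLN). The causes were not tested. The array weights and the omission of these 4 arrays were chosen after seeing the data, and the slide block was not run because the headers give no slides.

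With the replicate block, 1 member passed with the NET29 fragment (CDCA3), 2 for NLS-GFP against untreated (PLK1 and BIRC5), and 1 each in the full-length minus soluble difference for NET29 (CDCA3) and NET39 (FOXM1), and no other count of members changed with it. Same-numbered deviations correlated between -0.67 and 0.69 in comparisons other than that of the NET47 fragment, so the numbers were not taken as pairs there. Against untreated cells, replicates 1 to 4 of the NET29 line gave 0.52, 0.69, 0.04 and -0.08. Those of the NET39 line gave 0.57, 0.54, 0.30 and -0.21. Whether same-numbered arrays shared a preparation was not tested. CENPA in the NET39 line passed in 14 of 22 alternatives (log2 fold change 0.36 to 0.60) and FOXM1 with the NET39 fragment in 11 of 18 (0.50 to 0.73).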
